A study of Mus musculus with 19 samples.

Results

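*Dnmt3l* KO spermatogonia were set directly against *Pld6* KO spermatogonia, using the 3 *Dnmt3l* KO and 5 *Pld6* KO mRNA-seq libraries out of the 19 libraries of the series. The comparison covers the level of each retrotransposon subfamily in RPM (reads scaled to a fixed number of mapped reads), the share of each family in the summed RPM of a library, and the rank of subfamilies within a library. Of the 259 subfamilies listed, 113 reached 1 RPM in 2 or more of these 8 libraries and were tested. Just inside that limit were RLTR48A, BGLII and IAPEY3C_LTR, whose second-highest RPM was 1.0, 1.07 and 1.08, and just outside were IAPEY5_LTR, RLTR44E and RLTR13D2, each at 0.96. The cells were EpCAM-positive cells sorted from mouse testes at postnatal day 7, and each library is a biological replicate from a homozygous mutant. Both mutations are constitutive, and both lines had been backcrossed to C57BL/6J. The other 11 libraries are wild-type and heterozygous mice of the same lines, namely 2 and 3 in the *Dnmt3l* line and 3 each in the *Pld6* line by the sample labels. The methods text instead gives 3 wild-type and 2 heterozygous *Dnmt3l* mice, so which *Dnmt3l* libraries are wild type is less sure than which are KO. No group combines the mutations. The mouse line is the same split as the mutation, and no label names a batch, so the mutation, the line and any batch of sorting, library preparation or sequencing cannot be told apart in any difference between the KO groups. Nor can fewer cells of a type and less RNA per cell be told apart in such bulk samples.

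DNMT3L has no methyltransferase activity of its own and stimulates the enzymes that place new DNA methylation in fetal male germ cells. PLD6, also called MitoPLD, is a protein of the mitochondrial outer membrane needed to make piRNAs, the small RNAs that guide PIWI proteins to retrotransposon transcripts for cleavage and to retrotransposon loci for DNA methylation. L1 is the autonomous LINE family of the mouse. IAP, MMERVK10C and MMERGLN are LTR retrotransposons, whose LTRs hold the promoter and whose internal regions (int) encode the viral proteins. SINE B1 and B2 encode no protein. Most L1 subfamilies are listed by 1 end only: 5end entries begin at the promoter, 3end entries cover the tail, and orf2 entries serve several subfamilies. LTR elements are listed as LTR and internal region.

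The summed RPM over all subfamilies was 12659 to 14603 in *Dnmt3l* KO and 7178 to 8426 in *Pld6* KO, against 3382 to 4114 and 2167 to 2730 in the wild types of the same lines. At least 99.7% of the sum of each KO library lay in the 113 tested subfamilies, and 67 to 89 subfamilies were listed at 0 per KO library. The values are RPM with no read counts, so the read depth behind each value is unknown. RPM is not divided by the length of the consensus sequence, so levels are compared between libraries for the same subfamily or family. The transcripts of *Dnmt3l* and *Pld6* and the markers of spermatogonia or of somatic testis cells are not among these values and were not analysed here. In *Pld6* KO, replicate 5 had the lowest IAP sum, and replicate 4 the lowest L1 sum and the highest SINE sum. For some results, values without them are given below.

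Most IAP subfamilies past the threshold were higher in *Dnmt3l* KO, while the young L1 parts and part of the IAPEy group were higher in *Pld6* KO. Of the 113 tested subfamilies, 28 were higher in *Dnmt3l* KO (24.8%) and 8 were higher in *Pld6* KO (7.08%), while 77 did not pass the threshold (limma on log2(RPM + 1), Benjamini-Hochberg adjusted p below 0.05). The 28 were 12 IAP, 4 MMERVK10, 1 L1, 1 SINE and 10 subfamilies of other families. The 8 were 4 of L1, 3 of the IAPEy group and ERVB7_1-LTR_MM. Together these are 36 subfamilies (31.9%). The RPM of the groups did not overlap for 46 subfamilies (40.7%), with 36 of these higher in *Dnmt3l* KO (31.9%) and 10 higher in *Pld6* KO (8.85%), among them 25 of the 28 and all 8. The median log2 difference over all 113 was 0.38 in the direction of *Dnmt3l* KO, and positive in 93 of them, so a log2 difference near 0.38 is the general shift between the groups on the RPM scale. This split depends on the scale. With each library rescaled by median ratios over 33 subfamilies, the median shift was 0.23 and the calls were 14 and 12. With each library divided by its own summed RPM, the shift was -0.24 and the calls were 6 and 20. For the 20 IAP subfamilies, the calls were 12 and 3 on the RPM scale, with a median log2 difference of 0.79. They were 8 and 3 by median ratios (median 0.60), and 5 and 3 as shares (median 0.08). Past the threshold in the same direction on all 3 scales were 6 subfamilies higher in *Dnmt3l* KO, namely IAPEz-int, IAPA_MM, IAPLTR1_Mm, IAPLTR1a_Mm, IAPLTR2b and MMERVK10C, and the same 8 higher in *Pld6* KO.

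**Figure D1:**
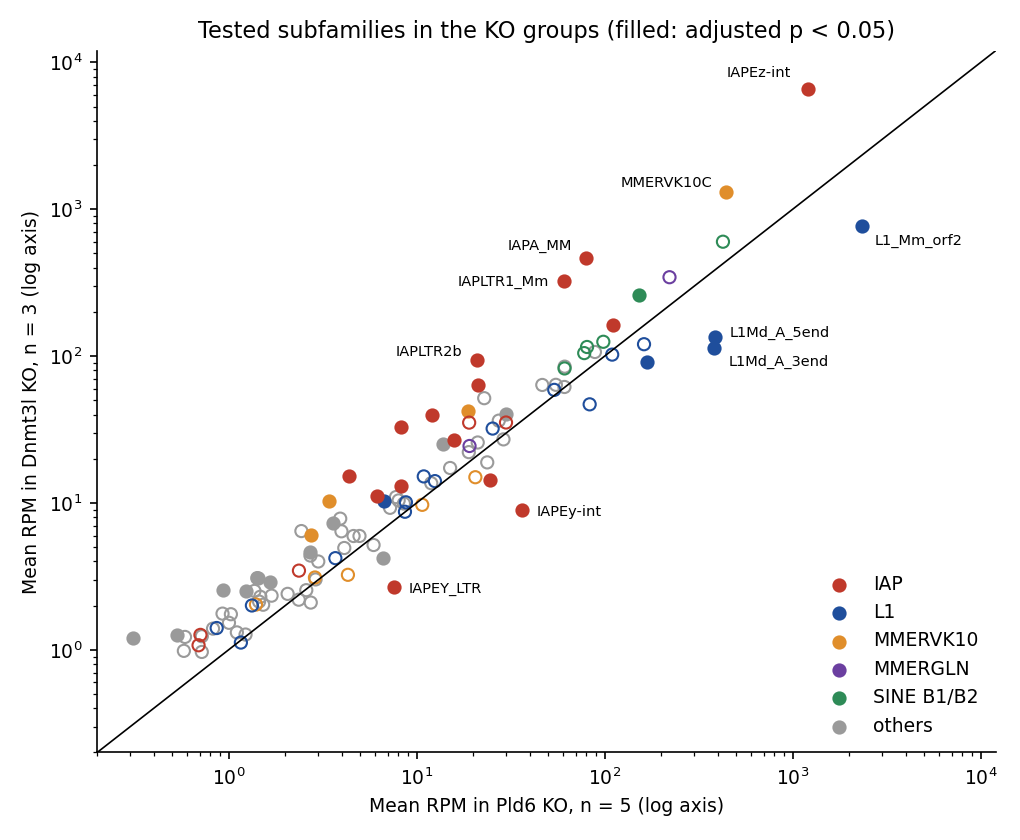
Mean RPM of the 113 tested subfamilies in *Pld6* KO (x axis, 5 libraries) and *Dnmt3l* KO (y axis, 3 libraries), both on log axes, coloured by family and filled where the adjusted p was below 0.05. Points above the line of equal RPM are higher in *Dnmt3l* KO: IAPEz-int, IAPA_MM, IAPLTR1_Mm and MMERVK10C lie above it, and L1_Mm_orf2, the L1Md_A parts and IAPEy-int below it.

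The families made up different parts of the retrotransposon reads in the KO groups. IAP took 55.6%, 61.2% and 60.5% of the summed RPM in *Dnmt3l* KO replicates 1 to 3, and 24.4%, 22.8%, 23.8%, 25.4% and 11.2% in *Pld6* KO replicates 1 to 5. L1 took 12.3%, 10.5% and 11.7% in *Dnmt3l* KO, and 48.3%, 53.4%, 46.1%, 37.0% and 57.6% in *Pld6* KO. The groups did not overlap for either family. The mean share differed by 37.6 percentage points for IAP and by -37.0 for L1 (exact permutation test, two-sided p = 0.0357 for each, adjusted p = 0.0536 over 6 families). That p is the smallest that 3 against 5 libraries can give, and no family share passed the threshold after adjustment. Without *Pld6* KO replicate 5, the differences were 35.0 and -34.7 percentage points.

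MMERVK10 was, beside IAP, the family whose share was larger in every *Dnmt3l* KO library, with 10.5%, 10.7% and 10.5% against 5.63%, 4.58%, 7.25%, 6.41% and 9.23%. The remaining families together ("others") took 5.64% to 7.39% in *Dnmt3l* KO and 7.62% to 10.7% in *Pld6* KO. For both, the groups did not overlap, and the exact p was again 0.0357 (adjusted p = 0.0536). Wild types were also apart for others, at 12.5% to 15.2% (*Dnmt3l* line) and 18.2% to 25.2% (*Pld6* line). That mean difference of -8.43 percentage points had the sign of the KO difference (-2.20) and was larger. For L1 the wild-type difference was -6.50, of the KO sign but smaller. For IAP (-2.33) and MMERVK10 (-1.58) it had the opposite sign to the KO difference. MMERGLN (1.83% to 3.3% against 2.25% to 3.97%) and SINE B1/B2 (8.32% to 11.1% against 7.01% to 21.3%) overlapped between the groups, with exact p = 0.5 and p = 0.786. The highest SINE share, 21.3%, was that of *Pld6* KO replicate 4. In wild types the SINE share was 55.6% to 62.9% in the *Dnmt3l* line and 28.4% to 51.5% in the *Pld6* line. Shares add up to a fixed total, so a larger SINE share leaves less for the other families. As levels, the wild-type means of others were 515 RPM (*Dnmt3l* line) and 548 RPM (*Pld6* line), a fold of 0.94. Those of L1 were 558 and 524 RPM, a fold of 1.07, opposite in direction to its share.

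**Figure D2:**
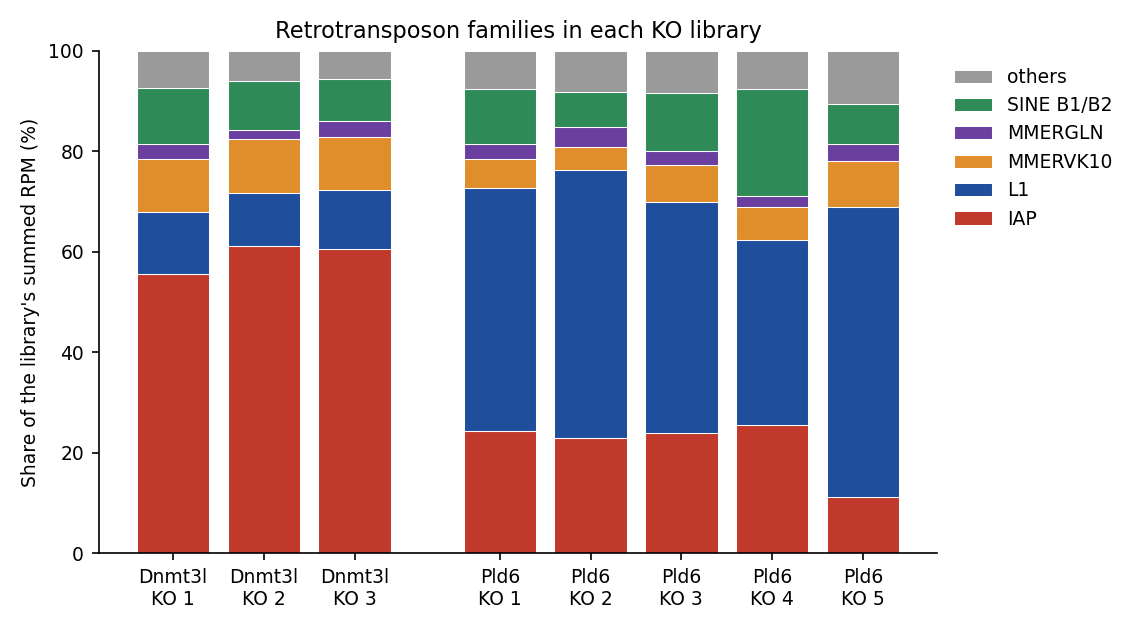
Share of 6 retrotransposon families in the summed RPM of each KO library, in percent, stacked to 100%. IAP (red) takes 55.6% to 61.2% in the 3 *Dnmt3l* KO libraries and 11.2% to 25.4% in the 5 *Pld6* KO libraries, and L1 (blue) takes 10.5% to 12.3% and 37.0% to 57.6%.

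Within a library, the IAP sum was 4.51, 5.81 and 5.15 times the L1 sum in *Dnmt3l* KO. In *Pld6* KO it was 0.505, 0.428, 0.517, 0.687 and 0.194 times the L1 sum. IAP thus exceeded L1 in every *Dnmt3l* KO library, and L1 exceeded IAP in every *Pld6* KO library. In the 11 wild-type and heterozygous libraries the ratio lay between 0.341 and 0.572, on the same side as in *Pld6* KO. As levels, the IAP sum was 7035, 7823 and 8839 RPM in *Dnmt3l* KO and 1901, 1835, 2009, 1824 and 813 RPM in *Pld6* KO, a fold of the group means of 4.71. The L1 sum was 1559, 1346 and 1715 RPM in *Dnmt3l* KO and 3764, 4286, 3888, 2656 and 4182 RPM in *Pld6* KO, which was 2.44-fold higher in *Pld6* KO. The log2 differences of these sums were 2.30 for IAP and -1.27 for L1, and 1.5 for MMERVK10 (exact permutation test, two-sided p = 0.0357 each, adjusted p = 0.0714 over 6 families). In wild types of the lines, the sums differed by a fold of 1.08 for IAP, 1.07 for L1 and 1.21 for MMERVK10. The mean summed RPM of *Dnmt3l* KO minus that of *Pld6* KO was 5611, to which IAP contributed 6222, MMERVK10 900 and L1 -2215, with smaller parts from the other families.

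IAPEz-int, the internal region of young full-length IAP elements, and its LTR IAPLTR1_Mm were among the subfamilies with the largest excess in *Dnmt3l* KO. IAPEz-int was at 5748, 6484 and 7410 RPM in *Dnmt3l* KO replicates 1 to 3 and at 1409, 1380, 1523, 1272 and 448 RPM in *Pld6* KO replicates 1 to 5. Every *Dnmt3l* KO library was above every *Pld6* KO library, and *Pld6* KO replicate 5 was the lowest. The group means were 6547 ± 833 RPM (SD, n = 3) and 1206 ± 434 RPM (SD, n = 5), a fold of 5.43 and a log2 difference of 2.55 (standard error, SE, 0.29, limma adjusted p = 2.17e-06). Without *Pld6* KO replicate 5 the log2 difference was 2.22. In wild types IAPEz-int was at 76.5 and 86.5 RPM in the *Dnmt3l* line and at 64.3 to 90.7 RPM in the *Pld6* line, below every KO library. IAPLTR1_Mm was at 308, 322 and 340 RPM in *Dnmt3l* KO and at 65.7, 66.7, 63.1, 87.4 and 19.2 RPM in *Pld6* KO. The groups were again apart with replicate 5 lowest, and the log2 difference was 2.55 (SE 0.31, limma adjusted p = 4.24e-06), or 2.19 without replicate 5.

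IAPA_MM, listed apart from IAPEz-int but similar to it in name and pattern, was at 426, 450.5 and 519 RPM in *Dnmt3l* KO and at 105, 72.7, 109, 84.2 and 28.3 RPM in *Pld6* KO. Its log2 difference of 2.66 (SE 0.36, limma adjusted p = 1.05e-05) was the largest of the 113, and it was 2.33 without *Pld6* KO replicate 5. IAPLTR1a_Mm was at 30.0, 35.6 and 33.2 RPM against 8.79, 8.98, 6.97, 10.9 and 5.64 RPM, a log2 difference of 1.9 (SE 0.20, limma adjusted p = 8.25e-07). All 4 subfamilies of this group were higher in *Dnmt3l* KO, with a median log2 difference of 2.55, against 0.38 over all subfamilies. How the mapping divided reads between such similar consensus sequences is not given in the sources used here, so the 4 may not be independent of each other.

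The 4 IAPLTR2 subfamilies, LTRs of another IAP group, were also all higher in *Dnmt3l* KO, with a median log2 difference of 1.70. IAPLTR2b was at 87.5, 94.5 and 99.0 RPM in *Dnmt3l* KO and at 27.1, 25.1, 19.1, 24.4 and 8.74 RPM in *Pld6* KO, and the groups did not overlap. Its log2 difference was 2.20 (SE 0.32, limma adjusted p = 2.39e-05). IAPLTR2a was at 36.8 to 41.7 RPM against 6.25 to 20.5 RPM, and IAPLTR2_Mm at 54.7 to 69.1 RPM against 12.3 to 38.0 RPM, with log2 differences of 1.74 and 1.66 (limma adjusted p = 8.18e-05 and 4.12e-04). Here *Pld6* KO replicate 4 was the highest of its group. IAPLTR2a and IAPLTR2_Mm passed the threshold after rescaling by median ratios (1.53 and 1.46) but not as shares of the summed RPM, where the log2 differences were 0.99 and 0.90 (limma adjusted p = 0.0619 and 0.0877). The fourth member, IAPLTR2a2_Mm, named after its value was seen, had 0.85 (limma adjusted p = 0.0144) and lost the call without *Dnmt3l* KO replicate 1 (adjusted p = 0.0556), by median ratios (0.65, adjusted p = 0.0631) and as a share (0.15, adjusted p = 0.819).

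Among the other IAP subfamilies, IAPLTR3-int was at 12.6, 17.4 and 15.5 RPM in *Dnmt3l* KO and at 3.68, 5.69, 4.63, 6.15 and 1.82 RPM in *Pld6* KO, a log2 difference of 1.64 (SE 0.27, limma adjusted p = 7.75e-05). As a share of the summed RPM it was 0.96 (adjusted p = 0.119). IAP1-MM_I had the smallest log2 difference among the IAP members named here that were higher in *Dnmt3l* KO, 0.56 (SE 0.14, limma adjusted p = 0.00491), from 145, 168 and 173 RPM against 103, 115, 107, 126 and 101 RPM. The groups did not overlap, but the difference is close to the general shift of 0.38. It was 0.37 after rescaling by median ratios (limma adjusted p = 0.103) and turned to -0.23 as a share.

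The IAPEy group, which has its own internal regions and LTRs, did not move as 1 block. Of its 8 tested members, 3 were higher in *Pld6* KO, 1 was higher in *Dnmt3l* KO and 4 did not pass the threshold, with a median log2 difference of 0.34. IAPEy-int was at 8.54, 10.9 and 7.5 RPM in *Dnmt3l* KO and at 32.2, 36.0, 37.3, 36.2 and 40.2 RPM in *Pld6* KO. No *Dnmt3l* KO library reached the lowest *Pld6* KO library, and *Pld6* KO replicate 5, lowest in IAPEz-int, was the highest here. The means were 4.05-fold apart, with a log2 difference of -1.92 (SE 0.20, limma adjusted p = 8.25e-07), the largest in the direction of *Pld6* KO. In wild types IAPEy-int was at 9.87 and 14.4 RPM in the *Dnmt3l* line and at 7.89 to 14.2 RPM in the *Pld6* line.

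The LTR IAPEY_LTR was at 2.36, 2.73 and 2.96 RPM in *Dnmt3l* KO and at 8.33, 6.07, 5.71, 10.4 and 7.53 RPM in *Pld6* KO, and its log2 difference was -1.20 (SE 0.20, limma adjusted p = 9.29e-05). IAPEY3-int was at 14.1, 14.8 and 14.2 RPM against 22.0, 25.6, 23.1, 23.4 and 29.3 RPM, with a log2 difference of -0.73 (SE 0.22, limma adjusted p = 0.0173). The IAPEY3-int call was lost without *Dnmt3l* KO replicate 1 (adjusted p = 0.0550) or replicate 3 (adjusted p = 0.0521), with log2 differences of -0.72 and -0.73. The member higher in *Dnmt3l* KO was IAPEY5_I, named after its value was seen, at 25.2 to 29.0 RPM against 11.4 to 18.9 RPM. Its log2 difference of 0.74 (SE 0.21, limma adjusted p = 0.0109) passed the threshold on the RPM scale alone and was -0.01 as a share. It was lost without *Dnmt3l* KO replicate 3 (adjusted p = 0.0521).

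Most of the young L1 parts were higher in *Pld6* KO. Of the 5 entries for L1Md_A, L1Md_T, L1Md_Gf and the shared ORF2, 4 were higher in *Pld6* KO and L1Md_Gf_5end did not pass the threshold, with a median log2 difference of -1.44. On both other scales all 5 passed it. L1_Mm_orf2, the second open reading frame, which encodes the reverse transcriptase and endonuclease, was at 759, 662 and 891 RPM in *Dnmt3l* KO and at 2280, 2713, 2546, 1573 and 2542 RPM in *Pld6* KO. The lowest *Pld6* KO library, replicate 4, was still above the highest *Dnmt3l* KO library. The means were 3.02-fold apart and the log2 difference was -1.58 (SE 0.22, limma adjusted p = 1.44e-05). In wild types it was at 184 and 202 RPM in the *Dnmt3l* line and at 160 to 204 RPM in the *Pld6* line. L1Md_A_3end was at 118, 99.7 and 125 RPM in *Dnmt3l* KO and at 357, 423, 364, 372 and 385 RPM in *Pld6* KO, a log2 difference of -1.73 (SE 0.13, limma adjusted p = 1.71e-08).

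L1Md_A_5end, which holds the promoter, was at 149, 108 and 148 RPM in *Dnmt3l* KO and at 484, 414, 362, 176 and 502 RPM in *Pld6* KO. Replicate 4 of *Pld6* KO was close to the *Dnmt3l* KO libraries, and the groups did not overlap. The log2 difference was -1.44 (SE 0.36, limma adjusted p = 0.00424) with it and -1.70 (adjusted p = 3.56e-04) without it. L1Md_T_3end was at 91.3, 79.3 and 105 RPM in *Dnmt3l* KO and at 154, 209, 160, 147 and 167 RPM in *Pld6* KO, a log2 difference of -0.86 (SE 0.16, limma adjusted p = 3.31e-04). L1Md_Gf_5end was at 48.5, 39.8 and 52.5 RPM against 100.5, 92.4, 75.7, 45.0 and 103 RPM. Only *Pld6* KO replicate 4 overlapped with *Dnmt3l* KO here. The log2 difference of -0.76 (95% confidence interval -1.41 to -0.12, limma adjusted p = 0.0636) passed the threshold without that library (-0.97, adjusted p = 0.0138). It also passed by median ratios (-0.95, adjusted p = 0.0102), as a share (-1.54, adjusted p = 8.53e-04) and with only the KO libraries in the fit (adjusted p = 0.0422).

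The 2 tested MusHAL1 entries, counted with L1 but grouped apart, had a median log2 difference of 0.41, which was -0.16 as shares. Neither passed the threshold. The other 11 L1 subfamilies tested, mostly of older L1 and of L1Md_F, had a median log2 difference of 0.17, and 1 of them passed the threshold. That subfamily was Lx3_Mus_3end, named after its value was seen, with 0.58 (limma adjusted p = 0.0327), or -0.12 as a share, and the call was lost in 7 of the 8 fits that each left out 1 KO library, all but that without *Pld6* KO replicate 5 (adjusted p up to 0.118). L1Md_F2_3end was at 107, 99.2 and 101 RPM in *Dnmt3l* KO and at 101, 120, 97.7, 108 and 121 RPM in *Pld6* KO, and its log2 difference was -0.09 (95% confidence interval -0.42 to 0.23), which was -0.87 as a share and past the threshold there (limma adjusted p = 4.66e-04). L1Md_F3_3end had 0.13 (95% confidence interval -0.25 to 0.52), which was -0.05 after rescaling by median ratios and -0.64 as a share, past the threshold in the direction of *Pld6* KO (limma adjusted p = 0.0245). L1_Mus3_orf2 was at 104 to 129 RPM against 120 to 194 RPM, with a log2 difference of -0.41 (limma adjusted p = 0.135), and passed the threshold by median ratios (-0.60, adjusted p = 0.00703) and as a share (-1.19, adjusted p = 1.37e-04). The median over all 18 L1 subfamilies was 0.08 on the RPM scale, -0.06 after rescaling by median ratios and -0.60 as shares, so a direction for the family as a count of subfamilies depends on the scale.

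**Figure D3:**
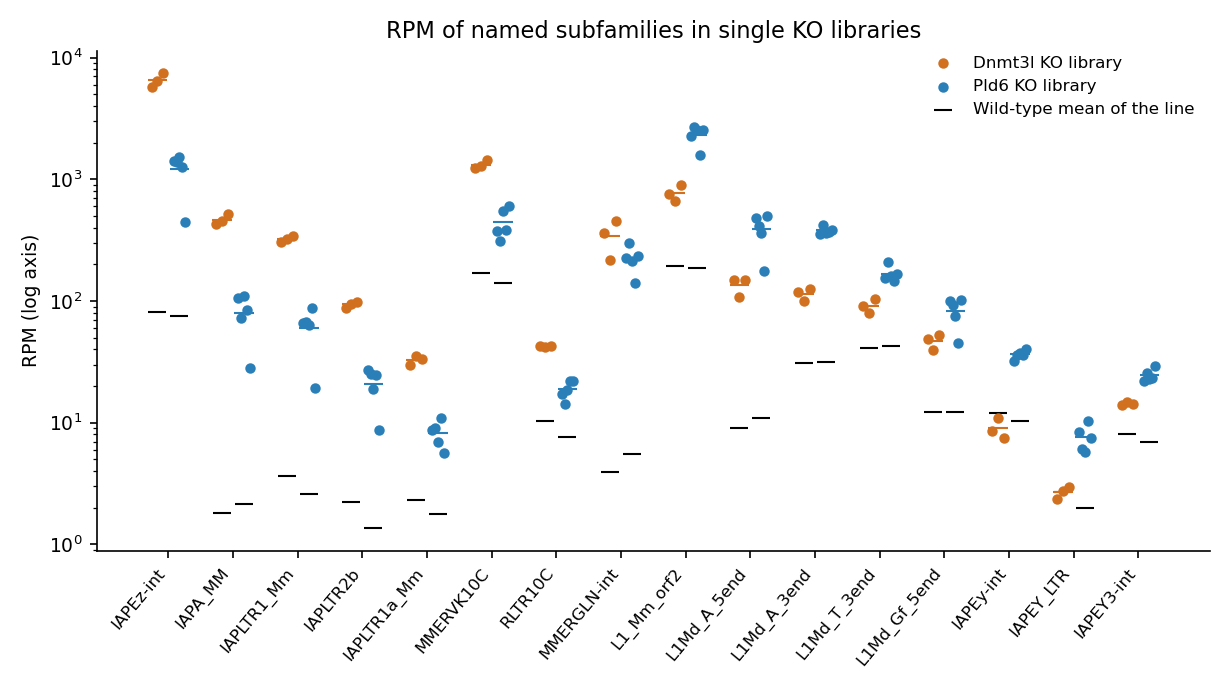
RPM of 16 named subfamilies in each *Dnmt3l* KO (orange) and *Pld6* KO (blue) library, on a log axis. Short coloured lines are group means and black lines are the wild-type means of the same line. IAPEy-int and IAPEY_LTR in *Dnmt3l* KO (8.97 and 2.68 RPM) lie near their wild-type means, while both are at 36.4 and 7.61 RPM in *Pld6* KO.

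MMERVK10C, an internal region of the MMERVK10 family, was at 1243, 1276 and 1433 RPM in *Dnmt3l* KO and at 376, 314, 548, 384 and 600 RPM in *Pld6* KO. The highest *Pld6* KO library, replicate 5, was well below the lowest *Dnmt3l* KO library. The log2 difference was 1.61 (SE 0.22, limma adjusted p = 1.43e-05). Its LTR, RLTR10C, was at 43.0, 41.5 and 43.1 RPM against 17.3, 14.2, 18.7, 22.0 and 21.8 RPM, with a log2 difference of 1.15 (SE 0.14, limma adjusted p = 4.24e-06). The related LTR RLTR10B was at 9.70, 10.04 and 11.2 RPM against 4.31, 1.63, 3.22, 4.56 and 3.40 RPM, with 1.40 (SE 0.31, limma adjusted p = 0.00166). RLTR10B did not pass the threshold with a pseudocount of 0.1 (1.64, adjusted p = 0.0988). As shares, RLTR10C and RLTR10B had 0.39 and 0.73 and did not pass the threshold. The fourth member past it on the RPM scale was RLTR10B2, named after its value was seen. The family of 9 tested members had a median of 0.37, close to that of all subfamilies, which was 0.22 after rescaling by median ratios and -0.12 as shares. RLTR10 was at 8.76 to 10.4 RPM and 10.1 to 11.7 RPM, a log2 difference of -0.13 (95% confidence interval -0.48 to 0.22), which was past the threshold as a share (-0.84, limma adjusted p = 0.00126). MMERVK10D3_I, named after its value was seen, had -0.44 and did not pass on the RPM scale. It passed in the direction of *Pld6* KO by median ratios (-0.61, limma adjusted p = 0.0119) and as a share (-1.18, adjusted p = 1.37e-04).

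Neither part of MMERGLN passed the threshold. MMERGLN-int was at 365, 217 and 451 RPM in *Dnmt3l* KO and at 224, 297, 211, 141 and 233 RPM in *Pld6* KO, and the groups overlapped through *Dnmt3l* KO replicate 2. The log2 difference was 0.61 (95% confidence interval -0.01 to 1.23, limma adjusted p = 0.130). Without *Dnmt3l* KO replicate 2 it was 0.91 (adjusted p = 0.0415). MMERGLN_LTR was at 24.7, 17.1 and 31.5 RPM against 16.5, 21.7, 18.1, 20.9 and 18.4 RPM, a log2 difference of 0.30 (95% confidence interval -0.11 to 0.71). As shares of the summed RPM both turned negative, at -0.17 and -0.45. The interval for MMERGLN-int reaches a doubling, so a difference of that size is not excluded by these libraries.

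All 6 SINE B1 and B2 members had a positive log2 difference between the KO groups on the RPM scale, with a median of 0.47, which was 0.28 after rescaling by median ratios and -0.31 as shares. All 6 had a larger difference between the wild types of the lines, with a median of 1.01. None of the 6 passed the test of the KO difference minus the wild-type difference. B2_Mm1a was at 622, 611 and 569 RPM in *Dnmt3l* KO and at 388, 198, 503, 857 and 183 RPM in *Pld6* KO. *Pld6* KO replicate 4 was above all *Dnmt3l* KO libraries, and the log2 difference was 0.74 (95% confidence interval -0.13 to 1.60, limma adjusted p = 0.166). In wild types the levels were 969 and 1290 RPM in the *Dnmt3l* line and 226 to 653 RPM in the *Pld6* line. B1_Mm was at 132, 104 and 110 RPM against 82.7, 75.7, 66.5, 104 and 74.1 RPM, with a log2 difference of 0.52 (limma adjusted p = 0.0691). Without *Pld6* KO replicate 4 both passed the threshold, at 1.05 for B2_Mm1a and 0.62 for B1_Mm (adjusted p = 0.0318 and 0.0343). As shares both turned negative, at -0.05 and -0.26. B2_Mm1t, named after its value was seen, was the SINE past the threshold on the RPM scale, at 0.90 (limma adjusted p = 0.0407), and the call was lost without any 1 of the *Dnmt3l* KO libraries or *Pld6* KO replicates 1, 2 and 5 (adjusted p up to 0.151).

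Of the 58 tested subfamilies outside these families, 10 were higher in *Dnmt3l* KO and 1 was higher in *Pld6* KO. Over all 113, these were 28 (24.8%) and 8 (7.08%), so members of other families were called less often than subfamilies in general. Their median log2 difference was 0.37, which was 0.24 after rescaling by median ratios and -0.24 as shares. None of the 10 passed the threshold as a share. Of the 18 ERV1 subfamilies, 3 were higher in *Dnmt3l* KO at the threshold, also a smaller part than the 24.8% over all 113. They were RLTR1B-int, RLTR1B and MuRRS4-int, all named after their values were seen. RLTR1B-int was at 27.2, 23.7 and 24.8 RPM in *Dnmt3l* KO and at 12.3, 10.2, 15.9, 12.7 and 17.7 RPM in *Pld6* KO, a log2 difference of 0.85 (SE 0.19, limma adjusted p = 0.00199). MuRRS4-int was at 2.13 to 2.92 RPM against 0.680 to 1.34 RPM, and the groups did not overlap. MMVL30-int, the ERV1 with the most reads, was at 141, 87.1 and 91.4 RPM against 64.7, 84.5, 133, 68.1 and 93.1 RPM and overlapped widely, with a log2 difference of 0.28 (95% confidence interval -0.22 to 0.77).

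ERVB7_1-LTR_MM, an LTR of the ETn/MusD group, was at 4.16, 4.22 and 4.33 RPM in *Dnmt3l* KO and at 6.49, 5.83, 5.62, 8.23 and 7.13 RPM in *Pld6* KO. The groups did not overlap, and the log2 difference was -0.54 (SE 0.17, limma adjusted p = 0.0249). The call was lost without *Dnmt3l* KO replicate 1, 2 or 3 (adjusted p = 0.0732, 0.0610 and 0.0640) and with the replicate block (-0.41, adjusted p = 0.121). Its KO difference minus the wild-type difference was -0.77 and did not pass the threshold (limma adjusted p = 0.0867). ETnERV, the member of this group with the highest RPM, was at 28.9, 23.4 and 29.0 RPM against 28.8, 28.5, 31.6, 20.8 and 35.1 RPM, a log2 difference of -0.08 (95% confidence interval -0.48 to 0.32), which was past the threshold as a share (-0.84, limma adjusted p = 0.00252). MMETn-int, named after its value was seen, had -0.31 and did not pass on the RPM scale. It passed by median ratios (-0.48, limma adjusted p = 0.0119) and as a share (-1.06, adjusted p = 1.37e-04). RLTR44-int was at 37.4 to 44.5 RPM against 24.6 to 37.0 RPM, with a log2 difference of 0.44 (limma adjusted p = 0.0441). Its call was lost with each *Dnmt3l* KO library and with *Pld6* KO replicates 1, 3 and 5 left out in turn (adjusted p between 0.0610 and 0.166). It was also lost by median ratios (0.25, adjusted p = 0.369), with a pseudocount of 0.1, without the filter, without the trend, with robust eBayes and with the replicate block (adjusted p between 0.0502 and 0.106), and the log2 difference was -0.33 as a share.

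MERVL, the internal region of an LTR element known from the 2-cell embryo, was at 79.1, 83.2 and 91.8 RPM in *Dnmt3l* KO and at 53.3, 76.1, 69.3, 34.7 and 72.9 RPM in *Pld6* KO. The groups did not overlap, but the log2 difference of 0.51 (95% confidence interval 0.01 to 1.01, limma adjusted p = 0.114) was near the general shift and turned to -0.26 as a share. Its LTR, MT2_Mm, overlapped between the groups at 20.9 to 24.6 RPM and 15.3 to 22.8 RPM. MT-int, the member of the MaLR group with the highest RPM, had the smallest difference of the subfamilies with a mean of at least 10 RPM. It was at 61.9, 60.1 and 62.7 RPM against 56.6, 71.9, 53.6, 63.5 and 60.0 RPM, a log2 difference of 0.02 (95% confidence interval -0.24 to 0.28). Its share of the summed RPM, which was itself 1.73-fold higher in *Dnmt3l* KO, was lower there (log2 difference -0.76, limma adjusted p = 6.00e-04). ERVB4_1B-I_MM varied within both groups, at 78.5, 25.5 and 51.0 RPM and at 12.4, 8.94, 32.7, 15.8 and 44.5 RPM. None of the 4 ERVB4 subfamilies passed the threshold, although their median log2 difference was 1.03.

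The wild types of the lines give an estimate of what the lines differ by without a mutation, with the doubt over the *Dnmt3l* wild-type labels given above. No label says whether the wild-type and KO libraries of a line share a batch. Mean summed RPM was 1.52-fold higher in the *Dnmt3l* wild types, against 1.73-fold between the KO groups. Different families lay behind these folds. In wild types the SINE B1/B2 sum had means of 2234 RPM (*Dnmt3l* line) and 1007 RPM (*Pld6* line), a fold of 2.22. The wild-type folds of the IAP and L1 sums were 1.08 and 1.07. Between the KO groups, the IAP sum differed by 6222 RPM and the SINE B1/B2 sum by 393 RPM. With 2 and 3 libraries, a subfamily short of the threshold is not thereby equal between the lines. In the same fit, the 2 *Dnmt3l* and 3 *Pld6* wild-type libraries differed at the threshold in 1 of 113 subfamilies (0.885%), B2_Mm2, named after its value was seen, with a log2 difference of 1.06 (limma adjusted p = 0.0431), and 8 had an unadjusted p under 0.05. For IAPEz-int the wild-type difference was 0.11 (SE 0.37), for L1_Mm_orf2 0.06 (SE 0.28) and for IAPEy-int 0.23 (SE 0.25). With the wild-type difference taken off, 27 of the 28 subfamilies higher in *Dnmt3l* KO kept their sign, and so did all 8 higher in *Pld6* KO. Of all 113, 9 (7.96%) were then above 0 and 5 (4.42%) below 0 at the threshold, and the same 9 and 5 were among the 28 and the 8. The 5 were IAPEy-int, IAPEY_LTR, L1Md_A_3end, L1_Mm_orf2 and L1Md_T_3end. The 9 were the 4 members of the IAPEz-int and IAPLTR1_Mm group, IAPLTR2b, MMERVK10C, RLTR10C, MuRRS4-int and RLTR13A3, the last named after its value was seen. With 2 and 3 wild-type libraries this count is sensitive to single libraries. The 9 became 5 without *Dnmt3l* KO replicate 2, 4 without *Dnmt3l* KO replicate 3, 4 and 3 without *Dnmt3l* wild-type replicates 1 and 2, and 5 without *Pld6* wild-type replicate 2. With the wild-type and heterozygous libraries of each line pooled, which does not rest on that distinction, 14 were above 0 and 8 below 0.

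**Figure D4:**
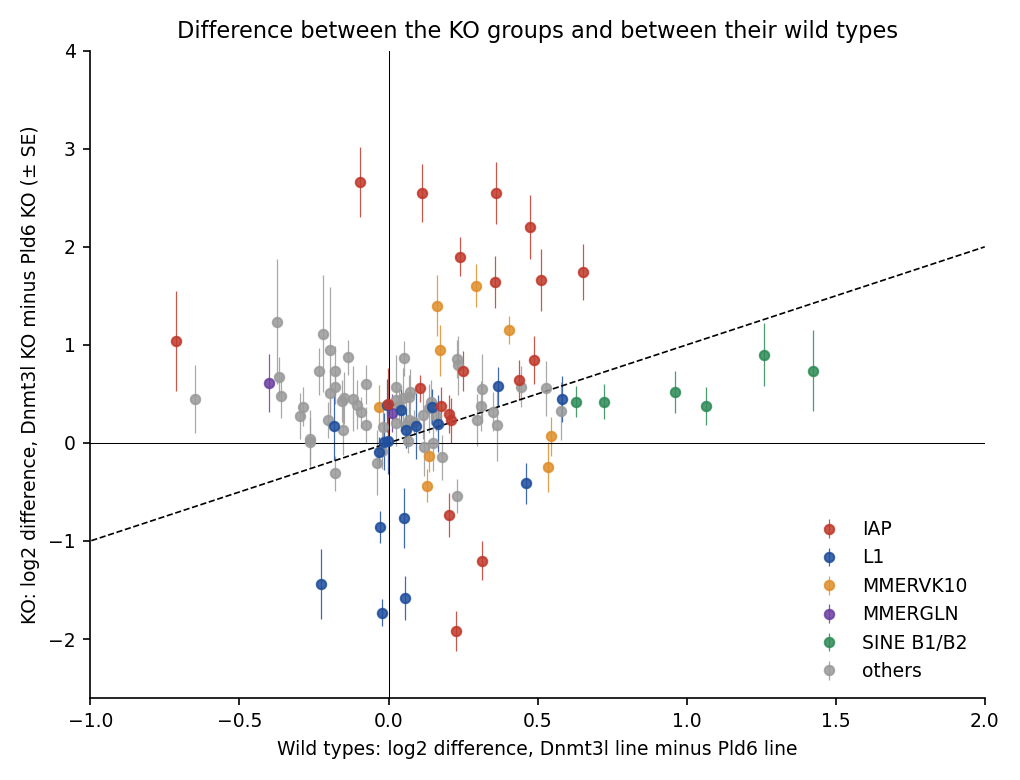
Log2 difference between the KO groups (y axis, with standard error) against that between the wild types of the same lines (x axis) for the 113 tested subfamilies, by family. The dashed line marks equal differences. IAP members reach 2.66 on the y axis with wild-type differences between -0.71 and 0.65, and all 6 SINE members lie below the dashed line on the RPM scale.

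Ratios between entries within 1 library do not depend on its total. The ratio of IAPEz-int to L1_Mm_orf2 was 7.57, 9.79 and 8.32 in *Dnmt3l* KO and 0.618, 0.509, 0.598, 0.809 and 0.176 in *Pld6* KO, while wild-type and heterozygous libraries had 0.350 to 0.648. The log2 ratios differed by 4.13 (exact permutation test, two-sided p = 0.0357, adjusted p = 0.179 over 10 ratios). The ratio of L1Md_Gf_5end to L1Md_A_5end was 0.325, 0.368 and 0.354 in *Dnmt3l* KO and 0.207, 0.223, 0.209, 0.256 and 0.204 in *Pld6* KO. The groups did not overlap (log2 difference 0.67, exact permutation p = 0.0357, adjusted p = 0.179), and the wild-type and heterozygous libraries were at 0.948 to 1.76.

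All other ratios, of parts of 1 element or of separately listed entries, overlapped between the KO groups. MMERVK10C to RLTR10C was 28.9 to 33.3 in *Dnmt3l* KO and 17.5 to 29.3 in *Pld6* KO. Its log2 difference was 0.41 (exact permutation p = 0.0714, adjusted p = 0.238). IAPEz-int to IAPLTR1_Mm was 18.7 to 21.8 in *Dnmt3l* KO and 14.6 to 24.1 in *Pld6* KO, a log2 difference of -0.02 (exact permutation p = 0.857). IAPA_MM to IAPEz-int was 0.0695 to 0.0742 and 0.0527 to 0.0745, and it was 0.0138 to 0.0442 in wild-type and heterozygous libraries. L1Md_A_5end to L1Md_A_3end was 1.09 to 1.27 in *Dnmt3l* KO and 0.474 to 1.36 in *Pld6* KO, with replicate 4 lowest, against 0.0614 to 0.395 in wild-type and heterozygous libraries. Of the 10 ratios, 2 did not overlap between the KO groups, and none passed the threshold after adjustment.

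The make-up of the families also differed. IAPEz-int was 81.7% to 83.8% of the IAP reads in *Dnmt3l* KO and 55.1% to 75.8% in *Pld6* KO. IAPEy-int was 0.0848% to 0.139% of them in *Dnmt3l* KO and 1.69% to 4.94% in *Pld6* KO. L1_Mm_orf2 was 48.7% to 51.9% of the L1 reads in *Dnmt3l* KO and 59.2% to 65.5% in *Pld6* KO, while L1Md_F2_3end was 5.91% to 7.37% and 2.51% to 4.06%. Shares within a family were apart between the groups for 13 of 20 IAP and 17 of 18 L1 members, against 46 of all 113 (40.7%). Such shares add up to a fixed total, so members of 1 family are not independent in this count.

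Ranked by RPM within each library, the most abundant reads came from IAPEz-int in all 3 *Dnmt3l* KO libraries (45.4%, 50.7% and 50.7% of the summed RPM) and from L1_Mm_orf2 in all 5 *Pld6* KO libraries (29.3%, 33.8%, 30.2%, 21.9% and 35.0%). In the 11 wild-type and heterozygous libraries B2_Mm1a held that place. Since RPM is not divided by length, a rank orders reads and not transcripts. Of the 20 subfamilies with the highest mean rank, 18 were the same in both KO groups. It took 19 to 23 subfamilies to reach 90% of the summed RPM in *Dnmt3l* KO and 23 to 27 in *Pld6* KO.

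The ranks of 30 subfamilies (26.5%) did not overlap between the KO groups, 15 in each direction. The largest moves were IAPEy-int, whose mean rank was 60.5 in *Dnmt3l* KO and 26.0 in *Pld6* KO, and IAPEY_LTR, with 84.0 and 56.6. IAPEY3-int (47.7 and 31.8), L1Md_Gf_5end (28.0 and 15.2) and ERVB7_1-LTR_MM (72.3 and 59.6) also stood higher in *Pld6* KO. In the other direction, IAPLTR3-int had a mean rank of 46.7 in *Dnmt3l* KO and 69.7 in *Pld6* KO, IAPLTR1a_Mm 34.5 and 54.4, and IAPLTR2b 18.0 and 37.2. IAPLTR2a (30.3 and 48.6) and RLTR10B (56.8 and 73.7) completed the 5 largest. Ranks were not tested. Spearman's rho between libraries over the 113 subfamilies was 0.974 to 0.986 for the 3 pairs within *Dnmt3l* KO, 0.945 to 0.977 for the 10 pairs within *Pld6* KO and 0.919 to 0.961 for the 15 pairs between the groups. These points share the composition of the genome, and the values are a description.

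**Figure D5:**
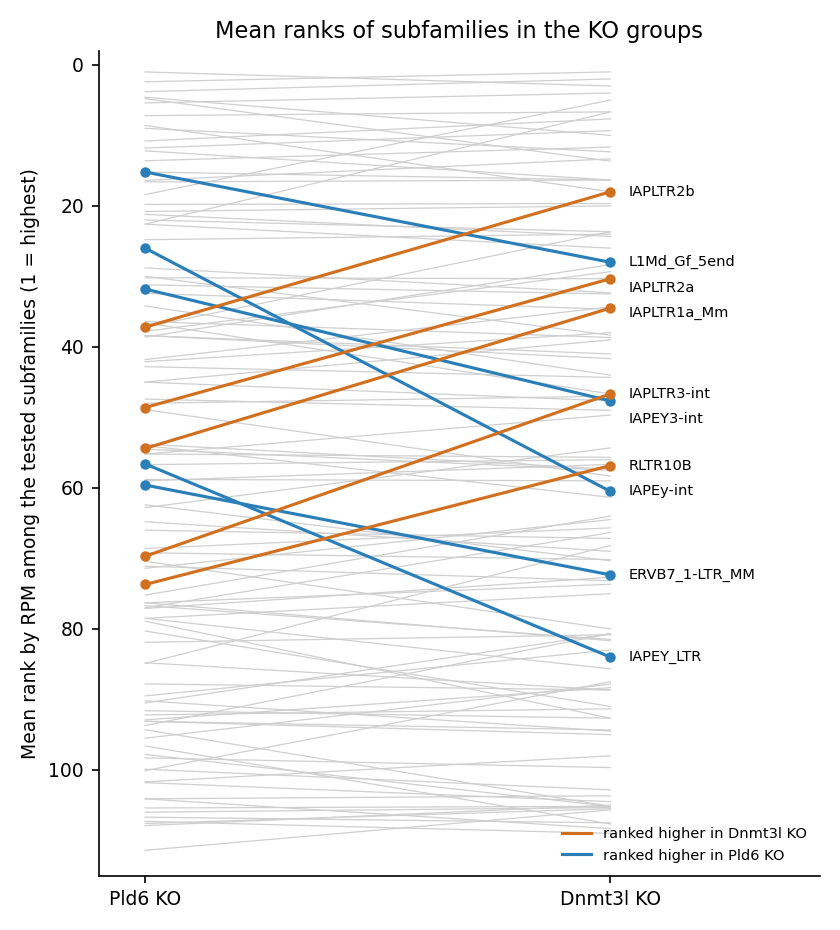
Mean rank by RPM of the 113 tested subfamilies in *Pld6* KO (left) and *Dnmt3l* KO (right), with 1 at the top. Grey lines are all subfamilies, and the 5 with the largest move in each direction among those whose ranks did not overlap are coloured. IAPEy-int goes from 26.0 in *Pld6* KO to 60.5 in *Dnmt3l* KO, and IAPLTR3-int from 69.7 to 46.7.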

How the data were processed

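Spermatogonia were sorted by FACS for EpCAM. Directional poly(A) libraries were sequenced as 50 bp single-end reads, and the authors mapped these onto retrotransposon consensus sequences with hisat2. The deposited values are RPM per subfamily. The submitters' processing notes name Trim Galore and mm10. RPM is relative to mapped reads. How reads that fit several consensus sequences were placed, and whether mapped means to the genome or to the consensus set, are not given in the sources used here. Between 63.5% and 94.9% of the low values of a library were multiples of one step within 0.0055 RPM. The step was chosen for the best fit in each library. How many values would fit such a step by chance was not estimated, so the percentages cannot decide whether a step is a single read. Read counts were not rebuilt, depth is unknown, and a 0 need not mean absence.

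Groups were taken from the sample labels, which give 2 wild-type and 3 heterozygous *Dnmt3l* mice where the methods text gives 3 and 2. All 19 libraries entered one linear model with 6 group means and no covariates, run on log2(RPM + 1) in limma (version 3.58.1, R version 4.3.3) with moderated variances and the trend option. Each contrast was tested two-sided over the 113 subfamilies, with Benjamini-Hochberg adjusted p-values and a threshold of 0.05. A difference on this scale understates that of subfamilies with low RPM. Family shares, sums and 10 ratios were compared by two-sided exact permutation tests, and shares were taken over the summed RPM of all subfamilies. Folds are ratios of group means. The fit was tested on simulated data with the same groups. Tables were handled in pandas 2.3.3 and numpy 2.4.6 under Python 3.11.15, exact tests run in scipy 1.17.1 and plots drawn with matplotlib 3.10.9.

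Families and groups of subfamilies were made from their names: IAP (25 listed, 20 tested), L1 (19, 18), MMERVK10 (10, 9), SINE B1/B2 (6, 6), MMERGLN (2, 2) and others (197, 58). The members, lists, ratios and rules were chosen with earlier results of these data known. Subfamilies were named if they were among the 10 largest differences past the threshold in each direction with groups apart, part of a ratio, among the 5 largest moves in rank in each direction, the highest of a family or group by mean RPM, or among the 5 smallest differences at a mean of at least 10 RPM. Those outside the rule are marked. Alternatives covered the pseudocount, the filter, the scaling, the libraries in the fit, the limma settings, the controls, a block for the replicate number, and single libraries left out. Leaving out libraries or rescaling for the difference after the wild types was added after seeing the data.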

Additional observations from a re-analysis of the deposited data

Results flagged for a closer look

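Among the 60 named values, shares, sums and ratios examined within the 5 *Pld6* KO libraries, 6 had a highest or lowest library whose gap to the next was over 0.71 of the range of the group. Chance alone gives this in about 1 in 20 groups of values, and the 6 are not independent. Replicate 5 accounted for 4 of them. IAPEz-int was at 448 RPM there and at 1272 RPM or more in the rest, a gap of 0.767 of the range. The summed IAP RPM was 813, with 1824 to 2009 in the rest (gap 0.845), and the IAP share was 11.2%, with 22.8% to 25.4% in the rest (gap 0.819). The share of other families was 10.7%, with 7.62% to 8.47% in the rest (gap 0.724). Replicate 4 accounted for the other 2. The ratio of L1Md_A_3end to L1_Mm_orf2 was 0.236, with 0.143 to 0.156 in the rest (gap 0.857), and the ratio of MERVL to MT2_Mm was 2.18, with 3.34 to 3.62 in the rest (gap 0.804).

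For 12 named subfamilies the difference between the KO groups was not the same as that between the wild types of the lines, by the limma contrast of these differences. Below 0, in the direction of *Pld6* KO, were IAPEy-int (-2.14, standard error 0.33, adjusted p = 1.98e-04, past the threshold in all 13 fits that each left out 1 KO or wild-type library), L1Md_A_3end (-1.71, standard error 0.21, adjusted p = 2.97e-05, 13 of 13) and L1_Mm_orf2 (-1.64, standard error 0.35, adjusted p = 0.00338, 13 of 13). IAPEY_LTR had -1.51 (standard error 0.32, adjusted p = 0.00307, 13 of 13) and L1Md_T_3end -0.83 (standard error 0.26, adjusted p = 0.0394), which kept the call in 3 of 13 fits.

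Above 0, in the direction of *Dnmt3l* KO, were IAPA_MM (2.75, standard error 0.57, adjusted p = 0.00307, 13 of 13), IAPEz-int (2.44, standard error 0.47, adjusted p = 0.00181, 13 of 13) and IAPLTR1a_Mm (1.66, standard error 0.32, adjusted p = 0.00181, 13 of 13). IAPLTR1_Mm had 2.19 (standard error 0.50, adjusted p = 0.00540) and lost the call without *Dnmt3l* wild-type replicate 2 (adjusted p = 0.0558). MMERVK10C had 1.31 (standard error 0.36, adjusted p = 0.0215) and kept the call in 9 of 13 fits. It was lost without *Dnmt3l* KO replicate 3, without *Dnmt3l* wild-type replicate 1 or 2, and without *Pld6* wild-type replicate 3 (adjusted p up to 0.126), and as a share of the summed RPM (1.13, adjusted p = 0.0798). IAPLTR2b had 1.73 (standard error 0.52, adjusted p = 0.0369) and RLTR10C 0.75 (standard error 0.23, adjusted p = 0.0394), and they kept the call in 5 and 3 of 13 fits, with adjusted p up to 0.178 and 0.164. Both lost it by median ratios (IAPLTR2b 1.51, adjusted p = 0.111, and RLTR10C 0.59, adjusted p = 0.159) and as shares (1.29, adjusted p = 0.412, and 0.54, adjusted p = 0.338).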

How the results depend on the processing

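The counts of 28 and 8 were within 1.5 times under a pseudocount of 0.1 (19 and 8) or 0.5 (26 and 8), no filter (30 and 10), a mean RPM of at least 5 (20 and 9), the KO libraries alone (32 and 10), no trend (27 and 8) and robust eBayes (26 and 8), and ranged from 19 to 28 and from 6 to 9 with each KO library left out. The filter settings changed how many subfamilies were tested, so those counts are not parts of the 113. With no filter, only the 32 subfamilies at 0 in all 8 KO libraries were left out of the 259 listed. Scaling moved the counts of 28 and 8 further, to 14 by median ratios and to 6 and 20 as shares. The labels number replicates 1 to 3 in both KO groups, but the mice come from separate lines. Deviations of same-numbered libraries from their group means correlated by -0.23, 0.24 and -0.04. These 3 values, over subfamilies that are not independent, cannot decide whether same-numbered libraries share a batch. With the replicate number as a block, 22 and 8 were called, and replicate numbers 4 and 5 exist in *Pld6* KO alone.

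After the wild-type difference was taken off, the counts of 9 and 5 ranged from 3 to 12 and from 4 to 7 with single libraries left out. The first was 5 by median ratios and 4 as shares. Pooled wild-type and heterozygous controls gave 14 and 8, and heterozygous controls 10 below 0. With SINE B1/B2 left out of the sum, the share differences were 40.8 points for IAP, -41.9 for L1, 4.18 for MMERVK10 and -2.63 for others. Each passed the threshold (exact permutation test, adjusted p = 0.0446 over 5 families). The exact permutation p cannot fall below 0.0357, so this pass came from adjusting over 5 families instead of 6 (adjusted p = 0.0536). It is no stronger evidence for the share differences. With a pseudocount of 1, the log2 ratio of IAPEz-int to IAPLTR1_Mm turned to 0.00071. Leaving out libraries moved the family share differences to between 35.0 and 39.3 points for IAP and between -39.8 and -34.7 for L1, and the log2 sums to between 2.06 and 2.38 and between -1.39 and -1.18.

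As shares, 13 named log2 differences changed sign: MMERGLN-int (-0.17), MMERGLN_LTR (-0.45), MERVL (-0.26), MT2_Mm (-0.52), B2_Mm1a (-0.049), MMVL30-int (-0.50), B1_Mm (-0.26), MT-int (-0.76), MusHAL1 (-0.28), RLTR13C2 (-0.36), RLTR44-int (-0.33), IAP1-MM_I (-0.23) and L1Md_F3_3end (-0.64). By median ratios MT-int (-0.17) and L1Md_F3_3end (-0.052) did. With single libraries left out, MT-int ranged from -0.027 (without *Pld6* KO replicate 3) to 0.077, and ETnERV from -0.19 to 0.019 (without *Dnmt3l* KO replicate 2). The cause of these changes was not tested. Unknown depth limits the low-RPM subfamilies, for which no counting error can be given.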
